A study of Mus musculus with 162 samples.

Results

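Spinal cord from mice that received the neutrophil-depleting antibody anti-Gr1 (aGr1) was compared at day 8 between skin treatment with MC903 and with its ethanol vehicle. The members were chosen from the labels alone (spinal cord, wild-type, aGr1, day 8), which gave 14 of the 162 samples of the series, 8 of them MC903-treated and 6 ethanol-treated. The series holds RNA-seq of skin, trigeminal ganglion and cord after either skin treatment. All 14 samples came from adult male wild-type C57BL/6 mice, given 0.2 mM MC903 or ethanol alone on the skin every day, and all carried the same antibody at 250 µg, given intraperitoneally each day from the day before the first skin treatment. Of the 13 other spinal cord samples, 9 had no injection (4 MC903, 5 ethanol) and 4 had a PBS injection (2 MC903, 2 ethanol), from mice of the same strain, genotype, sex and stage at the same day. The tissue was thoracic cord under treated rostral back skin, per the study's methods. The antibody binds Ly6G and Ly6C and can therefore also remove monocytes, and the depletion was checked by the authors in blood and treated cheek skin. The paper gives no such check of back skin or cord.

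MC903 (calcipotriol) is a vitamin D analog that makes keratinocytes release the cytokine TSLP and produces an itchy dermatitis in mice. Itch signals reach the dorsal horn of the spinal cord through sensory afferents, where peptide-expressing interneurons pass them on and astrocytes and microglia respond to lasting input. Neutrophils are early arrivals in the treated skin, and the antibody-injected mice allow the response of the cord to be read when these cells have been targeted.

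The 14 libraries held 21595429 to 33924323 counts on genes, with 22672 to 23877 genes above a floor of 3 counts in each. The labelled tissue was seen in its markers: the 13 spinal cord markers summed to between 14493 and 19581 cpm in each library, against 6.29 to 9.13 cpm for the 6 forebrain markers, and Hoxb8, Hoxa7 and Hoxc8, which mark the trunk of the body axis, were present in all 14. Cpm values are counts scaled to a common library size, here with the trimmed mean of M values (TMM). The first principal component of the 2000 most variable genes held 21.7% of the variance. It placed the ethanol libraries between -27.2 and -11.5 and the MC903 libraries between -4.46 and 23.8, with MC903 replicate 3 nearest to the ethanol group. The labels do not say that replicates were separate animals, so the p-values measure the spread between these samples only.

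MC903 changed the cord transcriptome of aGr1-injected mice in many genes and mostly by less than 2-fold. Most glucocorticoid-responsive genes rose, and most genes of oligodendrocytes, of microglia and of cholesterol synthesis fell. The gene lists were chosen with earlier results of these data known, so their shares below describe these libraries and are not independent tests. Of 27649 genes tested, 1256 rose (4.54%) and 1876 fell (6.79%) by edgeR's quasi-likelihood test with Benjamini-Hochberg adjustment at 0.05, together 11.3% of the genes, and the median log2 fold change over all genes was 0.01. Among the 3132 genes called, 145 were at least 2-fold higher and 130 at least 2-fold lower, and 2857 changed by less. In 1241 of them (437 higher and 804 lower) the 8 MC903 and the 6 ethanol libraries did not overlap in cpm. Adjusted p-values below come from this test unless another is named, and ± after a log2 fold change is its standard error.

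The gene with the smallest p-value was Etnppl (chr3:130617448-130637521, mm10), which encodes an astrocyte enzyme that breaks down phosphoethanolamine. It was at 65, 68.5 and 77 cpm (lowest, median and highest) in the ethanol libraries and at 160, 195 and 229 cpm with MC903. Every MC903 library lay far above every ethanol library, and the gene rose 2.78-fold (log2 fold change 1.48 ± 0.08, adjusted p = 5.68e-09). Phyhd1, a dioxygenase of the phytanoyl-CoA hydroxylase family, rose from a median of 6.55 cpm (4.72 to 7.55) to 16.6 cpm (14.4 to 19.5), a 2.70-fold change. Cyp4f15, a cytochrome P450 that oxidises fatty acids, rose 3.23-fold from a median of 2.92 to 9.16 cpm. Agt, the angiotensinogen gene that astrocytes of the cord express, rose 2.03-fold from 241 cpm (221 to 261) to 488 cpm (394 to 595). None of these genes overlapped between the groups. Others of the 15 leading genes that rose without overlap were Itih3 (2.11-fold, from a median of 187 to 399 cpm), Fam107a (1.97-fold, 171 to 331 cpm), the proline-degrading enzyme Prodh (1.66-fold) and the membrane protein Ttyh1 (1.45-fold, 521 to 762 cpm).

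The leading genes that fell came from oligodendrocytes and astrocytes, as well as from broadly expressed genes. Gpr17, a receptor that marks oligodendrocyte precursors about to differentiate, was at 60.1, 69.9 and 78 cpm with ethanol and at 20.5, 27.7 and 34.3 cpm with MC903. It fell by 60.1% (log2 fold change -1.33 ± 0.09, adjusted p = 6.37e-08). Opalin, a membrane protein of myelinating oligodendrocytes, fell by 61.8% from a median of 32.6 cpm (29.1 to 46.1) to 13.7 cpm (10.2 to 15.6). Both genes had every MC903 library below every ethanol library. Aqp4, the water channel of astrocyte endfeet, fell by 43.4% from 581 cpm (544 to 624) to 324 cpm (277 to 407), and Igfbp4, an insulin-like growth factor binding protein, fell by 59.3% from 34.4 to 13.3 cpm. Piga, an enzyme of glycosylphosphatidylinositol anchor synthesis, fell by 53.1% from 28.7 to 13.6 cpm, and the mechanosensitive channel gene Piezo2 fell by 50.7% from 13.9 to 6.45 cpm. In bulk tissue, fewer cells of a type and less RNA per cell cannot be told apart.

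**Figure D1:**
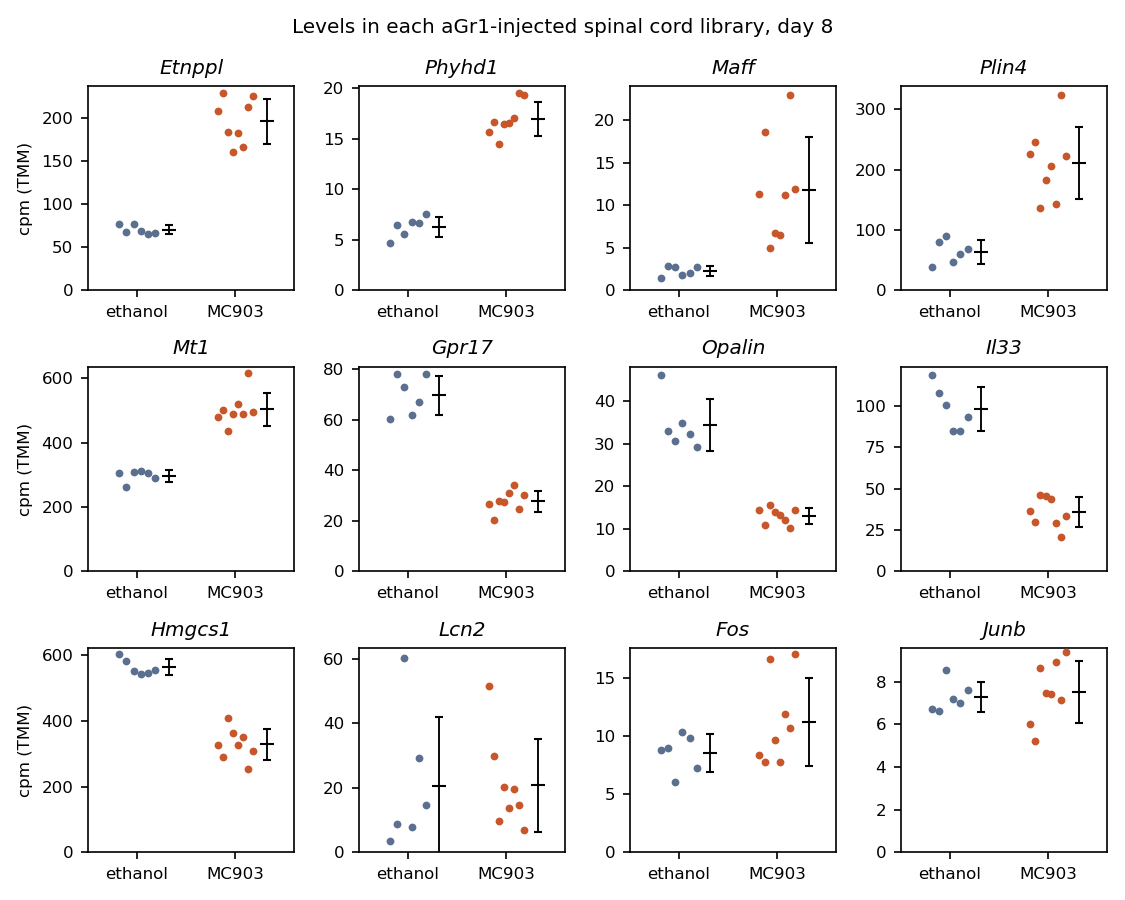
Levels of 12 genes in each of the 14 libraries, in cpm, with the 6 ethanol and the 8 MC903 libraries as points and the mean ± SD beside them. Etnppl, Phyhd1, Plin4 and Mt1 were higher and Gpr17, Opalin, Il33 and Hmgcs1 lower with MC903 with no overlap of the groups, whereas Lcn2 spread from 3.45 to 60.2 cpm within the ethanol group alone, with an SD bar that is cut at 0.

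**Figure D2:**
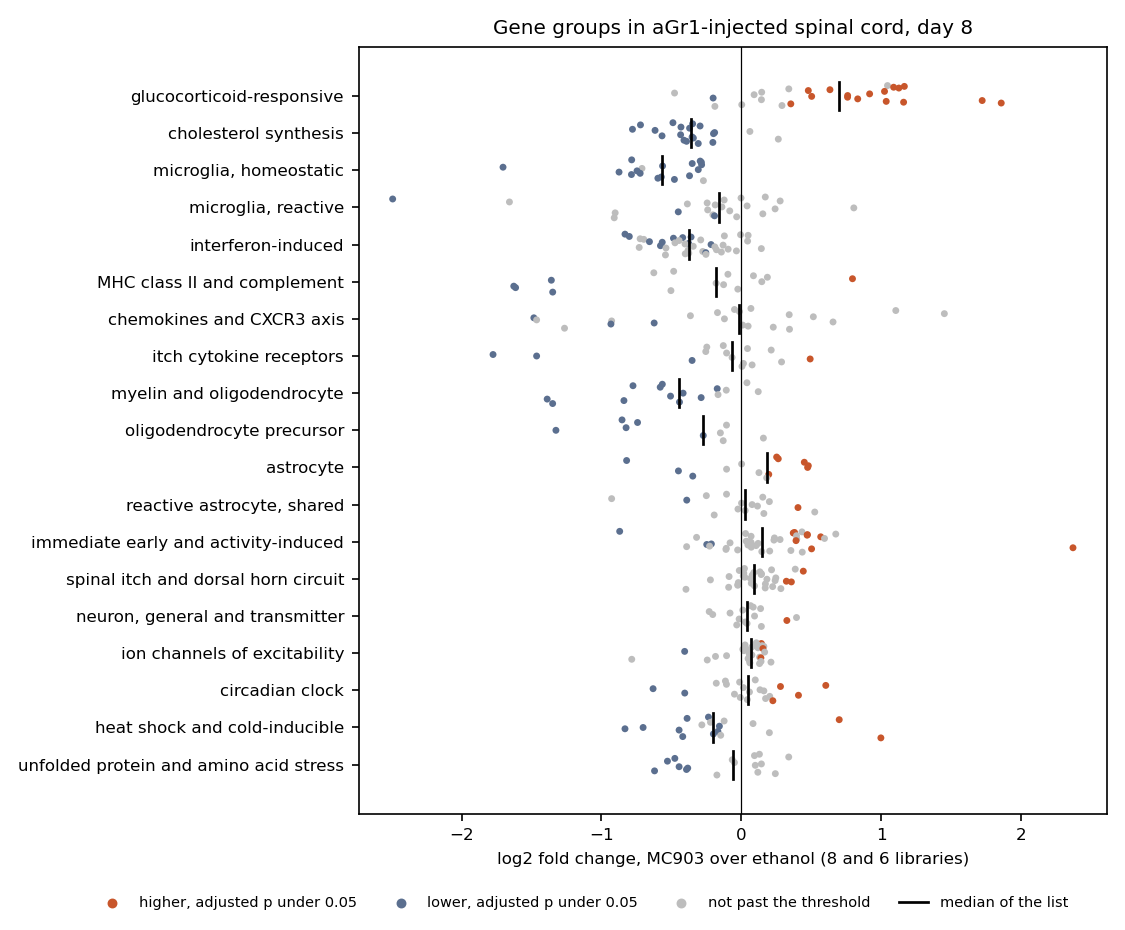
Log2 fold change (MC903 over ethanol, aGr1-injected cord) of each measured member of 19 gene groups, coloured by whether it passed an adjusted p of 0.05, with a black bar at the median of each group. The medians were 0.70 for glucocorticoid-responsive genes, -0.36 for cholesterol synthesis, -0.44 for myelin and oligodendrocyte genes and -0.57 for homeostatic microglial genes.

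Glucocorticoid-responsive genes, which the glucocorticoid receptor induces when stress hormone levels are high, rose as a group. Of the 26 measured, 16 rose and 1 fell, against 4.54% and 6.79% of all genes. Their median log2 fold change was 0.70 beside 0.01 over all genes. Of these genes, 8 were higher in every MC903 library than in every ethanol library (1.64% of all genes were). Plin4 (chr17:56100591-56109803), a lipid droplet coat protein, was at 39.4, 64.1 and 90 cpm with ethanol and at 137, 215 and 324 cpm with MC903. It rose 3.30-fold (log2 fold change 1.72 ± 0.20, adjusted p = 1.28e-05). Sult1a1, a sulfotransferase, rose 3.62-fold from a median of 11.4 cpm (6.59 to 12.9) to 36.4 cpm (26.2 to 48.1). The metal-binding metallothionein genes Mt1 and Mt2 rose 1.69-fold (log2 fold change 0.76 ± 0.06, adjusted p = 3.32e-07) and by a log2 fold change of 0.50 ± 0.06 (adjusted p = 1.35e-05), and being near copies they may share reads. None of these 4 genes overlapped between the groups.

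The growth-arrest and stress genes of the group also rose. Ddit4, an inhibitor of the mTOR kinase, rose 2.18-fold (30.4, 36.5 and 66 cpm with ethanol, 68.6, 89.9 and 105 cpm with MC903), and the cell-cycle inhibitor Cdkn1a rose 2.13-fold (47.2, 58.9 and 85 cpm against 88.3, 122.3 and 186 cpm). In both, ethanol replicate 6 was the highest of its group and lay just under the lowest MC903 library. Sgk1, a kinase that regulates ion transport, rose 2.05-fold (log2 fold change 1.04 ± 0.20, adjusted p = 0.00236), but its ethanol libraries ran from 69 to 301 cpm and overlapped the MC903 range of 293 to 396 cpm. Sgk3, Arrdc2, Hif3a, Pdk4, Gjb6, Nfkbia and Map3k6 rose as well, with log2 fold changes between 0.48 and 1.16. Fkbp5, the receptor co-chaperone most often used as a glucocorticoid readout and given here after its values were seen, rose by a log2 fold change of 0.63 ± 0.15 (adjusted p = 0.00934) with overlapping groups (48.6 to 94.6 cpm against 72.7 to 138 cpm). The receptor gene itself, Nr3c1, fell by a log2 value of 0.20 ± 0.06 (adjusted p = 0.0289). Tsc22d3, another standard target of the receptor, had a log2 fold change of 0.00 ± 0.07 (adjusted p = 0.988), so the members did not move as one.

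Promoters of the group were searched for the letters of the receptor's palindromic binding motif. The letters GNACA and TGTNC, set 3 bases apart, were searched on both strands in the 250 bases before each RefSeq gene start (GRCm38.p6). They occurred in 3 of the 20 glucocorticoid-responsive genes with a window (15%) and in 0.44% of 27025 genes. The sequences below run 5′ to 3′ on the plus strand, with the matching letters in capitals. The windows lie at chr8:94178839-94179088 for Mt1, chr10:21993640-21993889 for Sgk1 and chr4:133240568-133240817 for Map3k6. The Sgk1 window precedes a start that lies within the longer gene model of GENCODE (chr10:21882184-21999903). The list holds genes chosen as induced by the receptor, so a higher share than in all genes can come from that choice. A match describes the letters in this window only, and binding of the receptor was not tested.
Mt1: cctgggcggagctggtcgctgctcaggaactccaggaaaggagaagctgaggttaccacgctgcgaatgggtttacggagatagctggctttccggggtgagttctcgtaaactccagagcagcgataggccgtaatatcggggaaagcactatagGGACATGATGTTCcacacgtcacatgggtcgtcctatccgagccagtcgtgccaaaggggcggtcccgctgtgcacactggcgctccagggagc
Sgk1: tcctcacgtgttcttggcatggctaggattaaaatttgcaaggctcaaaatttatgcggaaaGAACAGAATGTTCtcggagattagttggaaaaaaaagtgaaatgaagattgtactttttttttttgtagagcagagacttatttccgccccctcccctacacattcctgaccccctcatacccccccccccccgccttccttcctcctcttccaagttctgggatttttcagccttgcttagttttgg
Map3k6: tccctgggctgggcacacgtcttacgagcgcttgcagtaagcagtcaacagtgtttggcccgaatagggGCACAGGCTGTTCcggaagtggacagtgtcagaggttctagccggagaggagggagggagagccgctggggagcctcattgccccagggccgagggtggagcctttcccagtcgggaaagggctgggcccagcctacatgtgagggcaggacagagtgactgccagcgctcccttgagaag

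Cholesterol synthesis genes, which turn acetyl-CoA into cholesterol and are most active in the cord in myelinating glia and astrocytes, fell almost as a whole. Of 20 measured, 18 fell and none rose, against 6.79% of all genes that fell, with a median log2 fold change of -0.36, and 15 had no overlap between the groups (2.94% of all genes). Hmgcs1, which makes the substrate of the rate-limiting step, was at 542, 553 and 604 cpm with ethanol and at 252, 326 and 409 cpm with MC903. It fell by 41.7% (log2 fold change -0.78 ± 0.08, adjusted p = 2.38e-06). Dhcr7, the last enzyme of the pathway, fell by 39.3% from 62.9 cpm (60.3 to 69.6) to 40.6 cpm (30 to 43.2). Both were lower in every MC903 library. Idi1, Sqle and Mvd fell by log2 values of 0.62, 0.39 and 0.57, and Srebf2, the transcription factor of the pathway, fell by a log2 value of 0.20. Insig1, which holds the pathway's transcription factor back, did not pass (log2 fold change 0.06, adjusted p = 0.58).

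The letters TCACNCCAC, part of the sterol regulatory element that SREBF2 binds, were searched on both strands of the same windows. They occurred in 1 of 12 cholesterol genes with a window (8.33%) and in 331 of 27025 genes (1.22%). The match was in Hmgcs1, the member printed here, at chr13:119690101-119690350 on the plus strand of GRCm38.p6, with the letters in capitals.
Hmgcs1: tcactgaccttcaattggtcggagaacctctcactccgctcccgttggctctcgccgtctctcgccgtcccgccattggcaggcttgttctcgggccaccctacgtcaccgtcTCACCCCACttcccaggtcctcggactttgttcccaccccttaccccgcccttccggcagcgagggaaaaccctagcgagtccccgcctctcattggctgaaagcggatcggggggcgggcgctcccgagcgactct

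Myelin and oligodendrocyte genes fell in 11 of 15 measured members and rose in none, against 6.79% of all genes that fell, with a median log2 fold change of -0.44. Ugt8a, which makes the myelin lipid galactosylceramide, was at 272, 282 and 324 cpm with ethanol and at 52.4, 106 and 171 cpm with MC903. It fell by 60.7% (log2 fold change -1.35 ± 0.17, adjusted p = 3.84e-05) with no overlap. Mag and Cnp, an axon-facing adhesion molecule and an enzyme of non-compact myelin, fell by 33.1% and 32.4%. Olig1, Olig2 and Sox10, the transcription factors of the lineage, fell with Ermn, Mog and Mal. The call of Mal was lost in 11 of 25 alternative settings of the analysis. Mbp, Mobp, Cldn11 and Myrf did not pass the test, with log2 fold changes of -0.11, 0.12, 0.04 and -0.17. Of 9 oligodendrocyte precursor genes, 5 fell and none rose, again against 6.79% of all genes that fell. They were Gpr17, Enpp6 (log2 fold change -0.82 ± 0.09), C1ql1 (-0.74), Bmp4 (-0.85) and Neu4 (-0.27).

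Homeostatic microglial genes, which resting microglia express, fell in 16 of 18 members and rose in none, against 6.79% of all genes that fell. Their median log2 fold change was -0.57, and 7 members fell without overlap between the groups (2.94% of all genes did). Fcrls, a microglial Fc receptor-like gene, was at 6.80, 8.87 and 14.2 cpm with ethanol and at 0.587, 2.97 and 5.60 cpm with MC903. It fell by 69.3% (log2 fold change -1.70 ± 0.27, adjusted p = 0.000346). P2ry13, a purine receptor, fell by 42% from a median of 7.92 cpm (6.70 to 9.15) to 4.54 cpm (3.68 to 5.26), and the fractalkine receptor Cx3cr1 fell by 32.3% from 47.8 cpm (42.8 to 56) to 35.2 cpm (21.1 to 39.5). These 3 genes had no overlap. Tmem119, a microglia-specific membrane protein, fell by a log2 value of 0.60 ± 0.14 (adjusted p = 0.00854) with groups that touched (17.2 to 22.5 cpm against 7.25 to 17.4 cpm), and Aif1 fell by a log2 value of 0.78 ± 0.17. The members that did not pass were Gpr34 and Tyrobp, with log2 fold changes of -0.71 (adjusted p = 0.051) and -0.27 (adjusted p = 0.14), both named after their values were seen. Of 22 reactive microglial genes, 3 fell (Ccl12, P2rx4 and Irf8) and none rose, a share of 13.6%, near the 11.3% of all genes called. Their median was -0.16.

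Of 37 interferon-induced genes, 11 fell and none rose, against 6.79% of all genes that fell, with a median log2 fold change of -0.38. Gbp3, an interferon-induced GTPase, fell from a median of 4.77 cpm (3.45 to 5.82) to 2.66 cpm (2.29 to 3.28), by a log2 value of 0.80 ± 0.12 (adjusted p = 0.00018), and Irgm2, Ifit3, Ifi27, Bst2 and Stat2 fell too. Of 15 genes of MHC class II and complement, 4 fell and 1 rose (33.3%, against 11.3% of all genes called). Those that fell were the antigen-presentation genes H2-Aa, H2-Ab1, H2-Eb1 and Cd74 with log2 fold changes between -1.63 and -1.35. H2-Ab1 was at 3.12, 2.52 and 4.70 cpm in ethanol replicates 2, 5 and 6, where 12 meningeal markers summed to 647, 676 and 705 cpm. It was at 0.791 and 0.663 cpm in ethanol replicates 1 and 4, with sums of 214 and 138 cpm. Ethanol replicate 3 held 3.01 cpm, within the range of replicates 2, 5 and 6, at a lower sum of 357 cpm. The part of the meninges in the fall of these antigen-presentation genes was not tested. H2-Ab1 and Cd74 did not pass with a replicate block. C5ar1, the receptor of complement fragment C5a, rose by a log2 value of 0.79 ± 0.24, a call lost in 13 of 25 alternative settings. Of the 21 measured genes of chemokines and the CXCR3 axis, 3 fell (14.3%, near the 11.3% of all genes called) and none rose. Among those that fell were Cxcl12, the ligand of CXCR4 (log2 fold change -0.62 ± 0.10), and Cxcl16 (-0.93). Cxcl10, the itch-inducing CXCR3 ligand the study followed in skin, had a log2 fold change of -0.93 ± 0.35 (adjusted p = 0.10). In the libraries with at most 100 cpm of skeletal muscle genes (11 of the 14) 4 interferon-induced genes fell, and with the summed caudal Hox level as a covariate 5 did.

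Astrocyte genes moved both ways. Of 13 measured, 6 rose and 3 fell, against 4.54% and 6.79% of all genes, with a median log2 fold change of 0.18. Glul, the enzyme that turns glutamate into glutamine, was at 1566, 1651 and 1770 cpm with ethanol and at 2010, 2286 and 2558 cpm with MC903, a 1.39-fold rise with no overlap. The connexin gene Gjb6, Fgfr3, Aldoc, Aldh1l1 and the glutamate transporter gene Slc1a3 rose by log2 values of 0.48, 0.45, 0.26, 0.25 and 0.20. The calcium-binding protein gene S100b fell by 26.8% from a median of 712 cpm (659 to 816) to 531 cpm (481 to 578), again with no overlap, and Slc7a10 and Aqp4 were the other members that fell.

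In the shared, inflammatory and ischaemic groups of reactive astrocyte genes, 1 of 15, 1 of 12 and 1 of 12 measured genes rose and 1, 1 and 2 fell, so that 13.3%, 16.7% and 25% passed against 11.3% of all genes. Serpina3n, a serine protease inhibitor, rose 1.32-fold from a median of 48.9 cpm (45 to 64) to 68.5 cpm (55.4 to 81.9), and Gfap, the intermediate filament gene that usually increases in reactive astrocytes, fell by 23.7% from 2378 cpm (2184 to 2626) to 1850 cpm (1125 to 2410). Both groups of values overlapped. The call of Gfap was lost in 5 of 25 alternative settings. These included the libraries with at most 100 cpm of skeletal muscle genes and the caudal Hox covariate. Gbp2, an interferon-induced member, fell by a log2 value of 1.04 ± 0.16.

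Lcn2 (chr2:32384633-32388252), a siderophore-binding protein that astrocytes and neutrophils both make and a gene the study centred on, was at 3.45, 11.7 and 60.2 cpm with ethanol and at 6.79, 17.1 and 51.6 cpm with MC903. Ethanol replicate 3 held the highest value of all 14 and the ranges overlapped almost completely. The log2 fold change was 0.00 ± 0.50 (adjusted p = 0.999). It moved to 0.69 ± 0.46 (adjusted p = 0.423) without ethanol replicate 3 and ranged from -0.34 to 0.69 when each library in turn was dropped. No change of Lcn2 was detected.

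Immediate early genes, which neurons and glia transcribe within minutes of stimulation, rose in 8 of 39 members and fell in 3, against 4.54% and 6.79% of all genes, with a median log2 fold change of 0.15. Maff (chr15:79346621-79359076), a small Maf transcription factor, was at 1.49, 2.38 and 2.83 cpm with ethanol and at 4.95, 11.3 and 22.9 cpm with MC903. It rose 5.17-fold (log2 fold change 2.37 ± 0.32, adjusted p = 6.02e-05) with no overlap. Arc, a synaptic capsid-like protein induced by activity, fell by 45.3% from a median of 21.4 cpm (17 to 25.6) to 11.7 cpm (7.48 to 15.8). Egr1, Nptx2, Dusp1, Csrnp1, Fosl2, Bdnf and Btg2 rose by log2 values between 0.37 and 0.57, and Jun and Ier5 fell by 0.25 and 0.21. Fos was at 6.06, 8.89 and 10.3 cpm with ethanol and at 7.73, 10.2 and 17 cpm with MC903 (log2 fold change 0.40 ± 0.18, adjusted p = 0.183). Junb was at 6.64, 7.09 and 8.53 cpm against 5.20, 7.44 and 9.37 cpm (0.05 ± 0.11, adjusted p = 0.855). The groups overlapped for both genes of the AP-1 factor. Of 25 alternative settings, the call of Fosl2 was lost in 14, of Ier5 in 18, of Btg2 in 7 and of Bdnf in 6. With the muscle-rich libraries left out 4 immediate early genes rose and 1 fell, and with the caudal Hox covariate 5 rose and 1 fell.

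Of 32 genes of dorsal horn peptides, receptors and cell classes, 3 rose and none fell. That was a share of 9.38%, beside 11.3% of all genes called in either direction and 4.54% that rose. Among the 3 were Penk, the enkephalin precursor (log2 fold change 0.32 ± 0.07, adjusted p = 0.00703), and the neuropeptide gene Gal (0.44 ± 0.14, adjusted p = 0.0433). The call of Gal was lost in 14 of 25 alternative settings, and none of the 3 passed when the 3 muscle-rich libraries were left out. Grp and its receptor gene Grpr, the main peptide pair of spinal itch, had log2 fold changes of 0.13 ± 0.16 and 0.09 ± 0.13, and Nppb and Npr1, which lie upstream of it, of 0.08 ± 0.51 and 0.01 ± 0.10. General neuronal genes showed 1 of 15 higher, motor neuron genes 1 of 10 lower, and ion channels of excitability 3 of 30 higher (among them Grin1 and Cacna1b, by log2 values of 0.15 and 0.14) and 1 lower (Hcn2, -0.41). The shares past the threshold were 6.67%, 10% and 13.3%, beside 11.3% of all genes. The calls of Grin1 and Cacna1b were lost in 15 and 16 of 25 alternative settings, and 1 to 5 of the channels were higher with 1 library left out.

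Among 15 genes of itch cytokines and their receptors, 1 rose and 3 fell (26.7%, against 11.3% of all genes called). Il33 (chr19:29925114-29960718), an alarmin that oligodendrocytes and astrocytes of the cord store in their nuclei, was at 85, 96.7 and 118.5 cpm with ethanol and at 20.7, 35.1 and 46 cpm with MC903. It fell by 63.7% (log2 fold change -1.46 ± 0.14, adjusted p = 1.51e-06) with every MC903 library below every ethanol library. Il6st, the shared signal subunit of the interleukin-6 receptor family, fell by a log2 value of 0.35 ± 0.05, whereas Il6ra, the interleukin-6 binding subunit, rose by 0.49 ± 0.11. Il31ra also fell (log2 fold change -1.77 ± 0.52), at 2.22 cpm or less in all libraries. It was highest in ethanol replicates 2, 5 and 6 (1.90, 2.22 and 2.04 cpm), which also held the most meningeal transcripts, and its call was lost in 10 of 25 alternative settings, among them leaving out any of these 3 libraries. Receptors of interleukin 4 and TSLP (Il4ra and Crlf2) had log2 fold changes of -0.07 ± 0.08 and -0.13 ± 0.08.

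Neutrophil transcripts were present in the aGr1-injected cord, and some were higher with MC903. Of 18 neutrophil markers, 5 rose and none fell, against 4.54% of all genes that rose, with a median log2 fold change of 1.06. In uninjected cord 3 of 18 rose and 0 fell (median -0.03), and in PBS-injected cord 0 of 17 passed (median 0.36). The effect of MC903 differed between aGr1-injected and uninjected cord in 0 of the 18, by the interaction test given below. Chil3, a chitinase-like protein of granulocytes and macrophages, was at 1.01, 4.26 and 6.33 cpm with ethanol and at 11.5, 23.6 and 68.8 cpm with MC903. It rose 7.48-fold (log2 fold change 2.90 ± 0.43, adjusted p = 0.000164) with no overlap. Mmp8 and Retnlg, of secondary granules and mature neutrophils, rose by log2 values of 2.07 ± 0.37 and 1.98 ± 0.39, and S100a8, a subunit of antimicrobial calprotectin, by 1.25 ± 0.39 (5.98, 14.2 and 24.8 cpm against 14.7, 29 and 83.5 cpm). Stfa2l1 rose on 0 to 5 counts per ethanol library and 1 to 28 per MC903 library. The calls of Chil3, Mmp8 and Retnlg held in all 25 alternative settings, whereas that of S100a8 was lost in 14 of 25 and that of Stfa2l1 in 11 of 24. Ly6g, which encodes the main antigen of the antibody, had 4 to 10 counts with ethanol and 3 to 23 with MC903 (log2 fold change 1.02 ± 0.45, adjusted p = 0.165).

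Summed over the 18 markers, neutrophil transcripts were at 59.1, 111 and 177 cpm with ethanol and at 98.2, 187 and 588 cpm with MC903, the highest being MC903 replicate 1 (exact permutation test over 3003 splits, two-sided p = 0.032, adjusted p = 0.128 over 4 sums). Ranges overlapped. Monocyte markers (0 of 10), dorsal root ganglion markers (0 of 13) and Schwann cell markers (0 of 9) held no gene past the threshold. Of the T, B and plasma cell markers 2 of 14 rose and 1 fell (21.4%, against 11.3% of all genes called).

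Transcripts from tissue around the cord also differed between libraries. The 10 skeletal muscle markers summed to 26.7, 66.5 and 467 cpm with ethanol and to 11.4, 23.7 and 161 cpm with MC903 (exact permutation p = 0.101), with 3 markers lower and a median log2 fold change of -1.52. Meningeal and fibroblast markers summed to 138, 502 and 705 cpm against 198, 233 and 451 cpm (exact permutation p = 0.17). The caudal Hox genes Hoxa10, Hoxc10, Hoxc11, Hoxd9 and Hoxd10, whose level depends on how far down the cord a piece reaches, summed to 9.53, 18.5 and 61.4 cpm against 15.4, 36.3 and 83.6 cpm (exact permutation p = 0.0706). Leaving out the 3 libraries above 100 cpm of muscle markers (ethanol replicates 1 and 2 and MC903 replicate 3) left 1824 genes called, and the caudal Hox sum as a covariate left 1500, of which 1742 and 1460 were among the 3132. With that covariate the glucocorticoid-responsive genes that rose numbered 13 of 26, the cholesterol genes that fell 15 of 20 and the homeostatic microglial genes that fell 10 of 18.

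**Figure D3:**
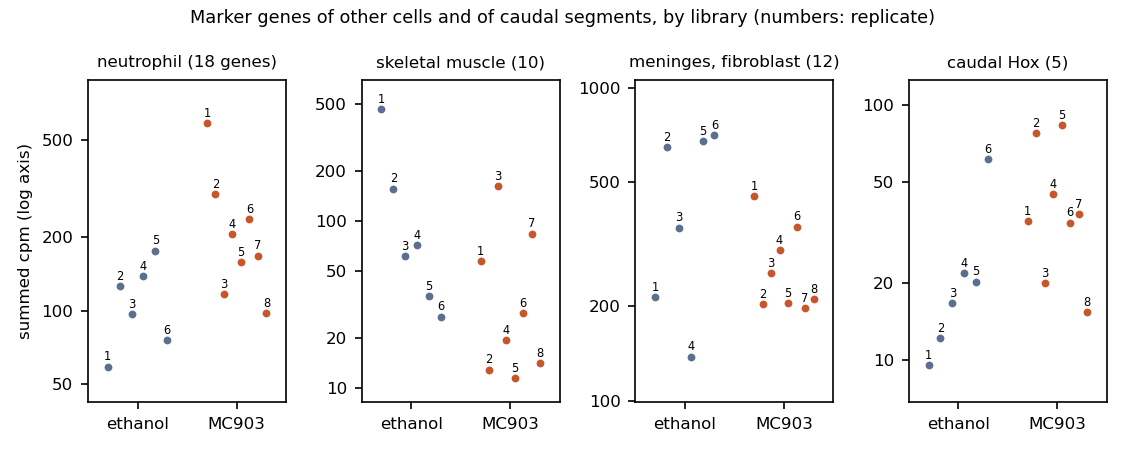
Summed cpm of marker genes of neighbouring tissues and blood cells in each of the 14 libraries, on a log axis, with replicate numbers beside the points and ethanol and MC903 libraries apart. The neutrophil sum reached 588 cpm in MC903 replicate 1, the muscle sum 467 cpm in ethanol replicate 1 and the caudal Hox sum 61.4 cpm in ethanol replicate 6.

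The same genes were read in cord without the antibody, which asks how the MC903 response compares when neutrophils were not targeted. In the 9 uninjected libraries 1291 of 25585 genes rose (5.05%) and 1827 fell (7.14%), 12.2% together, with 308 and 429 of them by at least 2-fold. Of the 3132 genes called in aGr1-injected cord, 3111 were tested in uninjected cord, and 1686 (54.2%) were called there in the same direction and 0 in the opposite one. The 3118 genes called in uninjected cord gave the same 1686 of 3109 (54.2%). Effects were smaller in aGr1-injected than in uninjected cord: genes called in aGr1-injected cord had a median log2 effect size of 0.32 there and 0.47 in uninjected cord, and the genes called in uninjected cord stood at 0.59 there and 0.27 with aGr1. The latter genes stood at 0.26 in PBS-injected cord, which had no antibody. The 9 uninjected libraries had a lower share of reads outside genes (9.42 to 14.3%) than the aGr1 libraries (16.7 to 20.3%), and its part in these differences was not tested.

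In the 4 PBS-injected libraries no gene passed (0 of 24573 by edgeR), with 1571 at an unadjusted p under 0.05 and with 176 called by DESeq2 and 18 by limma voom. Of the 3132 genes called with aGr1, 3102 were tested there and 2799 (90.2%) had the same sign, with a median of 0.27 in the called direction. The 3 kinds of injection share no libraries. Homeostatic microglial genes had a median log2 fold change of -0.57 with aGr1, -1.08 uninjected and -0.30 with PBS. Interferon-induced genes stood at -0.38, -0.80 and -0.21 in the same order, cholesterol genes at -0.36, -0.55 and -0.44, and glucocorticoid-responsive genes at 0.70, 1.43 and 1.35. The microglial and interferon medians were thus nearest to 0 with PBS and the cholesterol and glucocorticoid medians with aGr1. The PBS medians rest on 2 libraries per treatment. The 2 PBS MC903 libraries disagreed more (chi-square per gene 57.3) than the 2 PBS ethanol libraries (10.5), and the order of the medians was not tested.

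**Figure D4:**
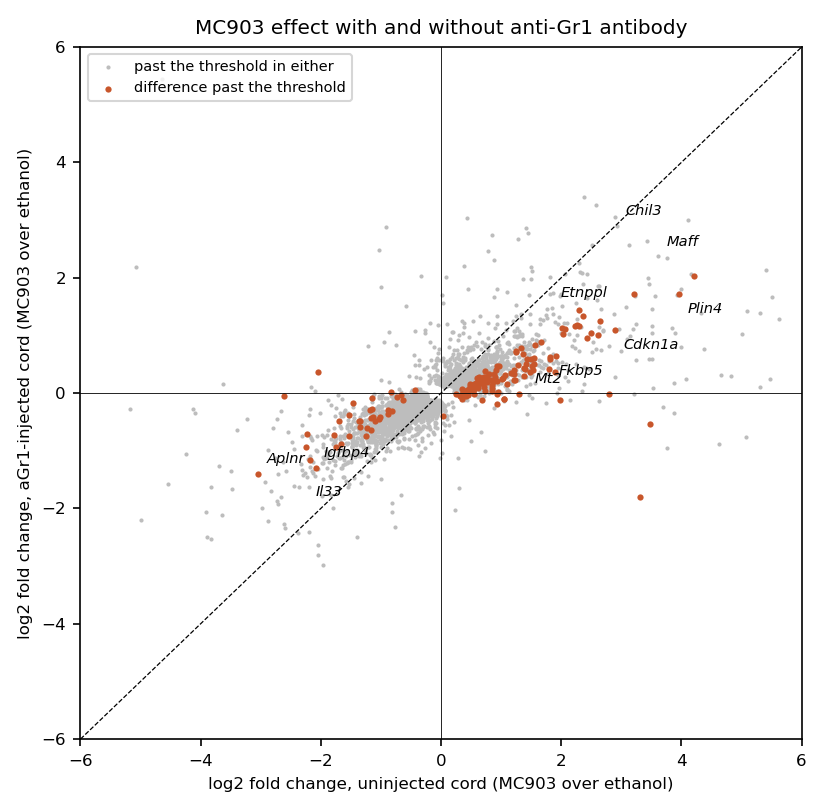
Log2 fold change (MC903 over ethanol) in uninjected cord and in aGr1-injected cord for 4534 genes, with a dashed line where the effects are equal and with the 152 genes marked whose difference passed the threshold. Most points lie nearer to 0 on the aGr1 axis than on the uninjected axis and keep their sign.

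Whether the response itself differed was tested as an interaction of treatment and injection over the 14 aGr1 and the 9 uninjected libraries. Of 28747 genes, 153 differed in their response, 36 with a higher log2 effect of MC903 under the antibody (0.125%) and the rest with a lower one (0.407%). Glucocorticoid-responsive genes gave 12 of the lower effects, none of the 26 had a higher effect, and their median difference was -0.80 beside -0.03 over all genes. Plin4 had log2 fold changes of 1.72 with aGr1 and 3.97 without injection, a difference of -2.28 ± 0.32 (adjusted p = 0.00127). Cdkn1a differed by -1.85 ± 0.28, Sgk1 by -1.49 ± 0.36 and Mt2 by -0.95 ± 0.14. Fkbp5, named after its values were seen, differed by -1.21 ± 0.20 (adjusted p = 0.005). Leaving out 1 library at a time gave 7 to 15 such genes, the fewest without uninjected MC903 replicate 1.

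The difference lay in both treatment groups. Against uninjected cord, 21 of the 26 glucocorticoid-responsive genes were higher with aGr1 in the ethanol libraries (median log2 difference 0.55) and 8 were higher in the MC903 libraries (median -0.46). On a scaling over all 27 cord libraries, Plin4 was at 60.8 ± 18.5 cpm (SD, n = 6) in aGr1 ethanol and 10.8 ± 3.78 cpm (n = 5) in uninjected ethanol, but at 198 ± 55.3 cpm (n = 8) and 171 ± 18.2 cpm (n = 4) with MC903. PBS-injected cord held 18.9 ± 3.74 cpm with ethanol and 185 ± 76.5 cpm with MC903 (n = 2 each). With the PBS libraries in place of the uninjected ones, none of the 26 genes passed and the median difference was -0.70. The antibody, the injection itself and the separate handling of these libraries therefore cannot be told apart in the difference from uninjected cord.

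**Figure D5:**
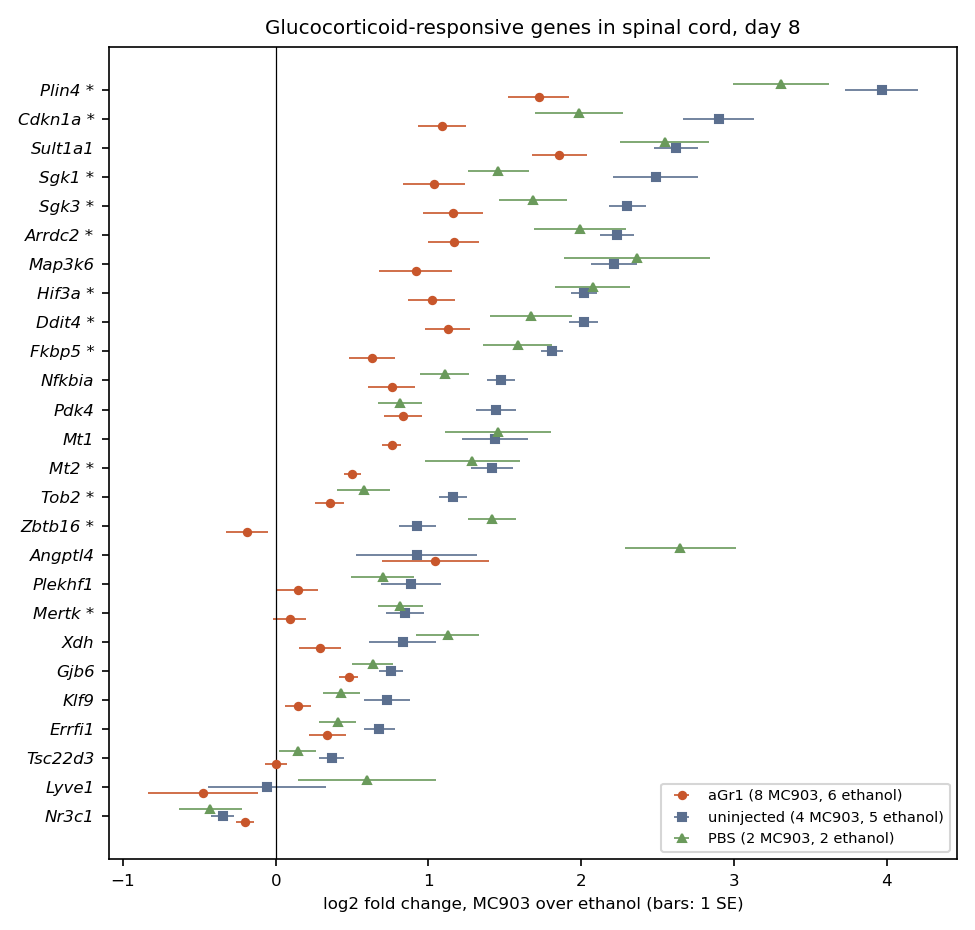
Log2 fold change (MC903 over ethanol) ± 1 standard error of the glucocorticoid-responsive genes in aGr1-injected, uninjected and PBS-injected cord, with an asterisk where the aGr1 and uninjected effects differed past the threshold. Plin4 stood at 1.72 with aGr1, 3.97 uninjected and 3.31 with PBS.

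Other genes with the smallest p-values in this test included Igfbp4, at 31 ± 4.43 and 12.5 ± 1.90 cpm (SD) in aGr1 ethanol and MC903 and at 91 ± 4.55 and 21.7 ± 0.677 cpm in uninjected cord, so that its fall was smaller with aGr1 (difference 0.75). Aplnr, the apelin receptor gene of endothelium, fell from 28.2 ± 4.47 to 10.6 ± 3.69 cpm with aGr1 and from 55.4 ± 4.58 to 6.81 ± 2.04 cpm uninjected (difference 1.61). Slc25a13, a mitochondrial aspartate and glutamate carrier gene, was at 16.4 ± 1.70 and 15.1 ± 2.0 cpm with aGr1 and at 13.9 ± 2.65 and 29 ± 4.37 cpm uninjected (difference -1.18). With PBS in place of uninjected libraries the Igfbp4 difference was -0.36, the opposite sign. For the genes the study centred on, the difference did not pass: Lcn2 -1.97 ± 0.74 (adjusted p = 0.239), Fos -0.49 ± 0.27 (0.459) and Junb -0.80 ± 0.20 (0.0651). In uninjected cord alone these genes rose, by log2 values of 1.93 ± 0.30, 0.85 ± 0.17 and 0.81 ± 0.16.

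Against PBS, most neutrophil markers were higher in aGr1-injected cord. With skin treatment as a covariate, 3713 of 28415 genes were higher with aGr1 (13.1%) and 3693 lower (13%), 88 and 209 of them by at least 2-fold, and of the 18 neutrophil markers 12 were higher and 0 lower. Ly6g was at a median of 0.237 cpm in the 14 aGr1 libraries and 0.103 cpm in the 4 PBS libraries (log2 difference 1.64 ± 0.59, adjusted p = 0.0455). S100a8, S100a9, Ngp, Ltf and Camp were higher by 1.83 ± 0.48, 2.04 ± 0.51, 2.19 ± 0.53, 2.28 ± 0.53 and 2.04 ± 0.57 on the log2 scale, and Lcn2 by 1.78 ± 0.62. Markers that did not pass were Elane, Mpo, Ctsg and Mmp9 (adjusted p = 0.0643, 0.0822, 0.0906 and 0.512), Stfa2l1, and Cxcr2, a chemokine receptor of mature neutrophils, with a difference of -0.05 ± 0.10 (adjusted p = 0.772).

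The smallest p-values among genes lower with aGr1 included the caudal Hox genes Hoxd11 (a median of 0.353 against 1.70 cpm, log2 difference -2.22 ± 0.30) and Hoxc11, and mt-Atp8, Gm16185 and Gt(ROSA)26Sor. Hoxd10 was lower by 2.96 ± 0.79 on the log2 scale, and Hoxb8 was higher by 0.26 ± 0.07, so the 2 sets of libraries differed in markers of cord level. Among the genes higher with aGr1, Card10, Adam11, Ubtd1, Nagpa and Fyb led with log2 differences of 0.37 to 0.53. Without PBS MC903 replicate 2 the count of genes called was 1186, and without PBS MC903 replicate 1 it was 9740.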

How the data were processed

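Spinal cord RNA was sequenced by the authors as poly(A) libraries with single-end reads, aligned to mm10 with TopHat and Bowtie2 and counted per gene with htseq-count. The deposited values are raw counts for 46078 Ensembl gene identifiers, of which 45143 took a symbol from GENCODE M21. The annotation release and the strand setting of the counting are not given in the sources used here, so overlapping and antisense genes cannot be told apart, and near copies may split reads. Lines for reads on no gene were left out of library sizes (16.7 to 20.3% in aGr1 libraries).

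Genes with at least 10 counts in total were fitted with edgeR 4.0.16 (quasi-likelihood test, TMM) in R 4.3.3, with Benjamini-Hochberg adjustment over all genes tested and a threshold of 0.05. Each comparison used its own libraries, and the difference between injections was an interaction term over 23 libraries. DESeq2 1.42.0 and limma 3.58.1 (voom with quality weights) were alternatives, with other size factors and filters, 1 fit over all 27 cord libraries, a replicate block and leaving out each library. The 4 alternatives added after the data were seen were the muscle limit of 100 cpm, the caudal Hox covariate, leaving out MC903 replicates 2 and 6 together, and a crossed pairing for PBS. None of the 61 pairs of libraries within a group agreed within sampling noise. The test was checked on simulated counts.

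The samples, the 39 lists (609 genes) and the tests were chosen with earlier results of these data known, and some lists were chosen by that earlier work. Genes named were Lcn2, Fos and Junb, up to 15 per direction by p-value without overlap and at least 1 cpm, list members past the threshold (up to 12 per list) with defining members that did not pass, and up to 5 per direction in the tests against uninjected and PBS cord. Results on some genes are not reported here. Other genes are said to be named after their values were seen. Promoter windows are from RefSeq GRCm38.p6.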

Additional observations from a re-analysis of the deposited data

Results flagged for a closer look

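Within the groups of 6 ethanol and 8 MC903 libraries, 38 of 506 sets of values had 1 library set apart from the rest by Dixon's criterion, which chance gives in about 1 of 20. Ethanol replicate 1 was the library in 11 of them and ethanol replicate 6 in 8.

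Ethanol replicate 1 stood highest for blood, muscle and myelin genes: Hbb-bs at 291 cpm, Hbb-bt at 107, Hba-a1 at 209, Acta1 at 99.4, Myl1 at 20.8, the summed muscle markers at 467, the bone gene Sp7 at 4.21, Cnp at 1196, Mag at 908, Mal at 735 and Opalin at 46.1 cpm. MC903 replicate 3 stood highest of its group for Acta1 at 26.9 cpm. Ethanol replicate 6 stood highest for the glucocorticoid-responsive genes Ddit4 at 66, Arrdc2 at 50.1, Cdkn1a at 85 and Pdk4 at 30.8 cpm, for Dusp1 at 17.9, for the Schwann cell gene Prx at 63 and for the caudal Hox sum at 61.4 cpm, and lowest for Chordc1 at 50.9 cpm. Ethanol replicate 3 was highest for Serpina3n at 64, Ly6c2 at 13.2 and Ccr2 at 2.22 cpm and lowest for Jpt2 at 51.7 cpm.

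Single values set apart in the other ethanol libraries were Piezo2 at 9.94 and Fyb at 12 cpm in replicate 4, both lowest, and in replicate 5 Neu4 at 15.4 cpm, lowest, and Manf at 44.6 cpm, highest. MC903 replicate 1 was highest for H2-Aa at 1.84, for Cd74 at 5.245 and for the summed neutrophil markers at 588 cpm. Among the other MC903 libraries, replicate 2 was highest for Gm16185 at 16.3 and Gt(ROSA)26Sor at 5.09, replicate 5 for Hoxc11 at 0.366, replicate 6 for Hsp90ab1 at 1377 and Ifi27 at 31, replicate 7 for Mt1 at 617 and replicate 8 for Slc1a3 at 177 cpm.

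The effect of MC903 differed between aGr1-injected and uninjected cord, by the interaction test of edgeR at an adjusted p of 0.05, for 25 of the named genes. It was lower on the log2 scale with aGr1 for the glucocorticoid-responsive genes Plin4 (-2.28), Cdkn1a (-1.85), Sgk1 (-1.49), Sgk3 (-1.18), Arrdc2 (-1.11), Hif3a (-1.03), Mt2 (-0.95) and Ddit4 (-0.93). It was also lower for Slc25a13 (-1.18), Per1 (-1.16), Csrnp1 (-1.09), Gm38271 (-1.04), Phyhd1 (-0.90), Il6ra (-0.83), Mfsd2a (-0.77), Slc24a4 (-0.56), Prodh (-0.56) and Smox (-0.53). It was higher for Aplnr (1.61), Ccnd1 (0.84), Igfbp4 (0.75), Kcna6 (0.70), Mog (0.57), Dpy19l1 (0.49) and Gas7 (0.45). Apart from Slc25a13, these genes had the same sign of effect in both kinds of cord.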

How the results depend on the processing

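The 3132 genes called between MC903 and ethanol in aGr1-injected cord numbered 2485 (without ethanol replicate 1) to 3798 (without MC903 replicate 6) with 1 library left out, 1832 in 1 fit over all 27 cord libraries, 1824 in the libraries with at most 100 cpm of muscle genes and 1500 with the caudal Hox covariate, where 34.7% of calls were higher against 40.1%. Named genes gave 5918 values under these alternatives, of which 5510 stayed on their side of the threshold, 382 lost their call and 26 gained one, and in 0 did a value past the threshold take the opposite sign. In uninjected cord the 3118 genes numbered 6504 by limma voom and 1887 to 4960 with 1 library left out (fewest without MC903 replicate 1, most without ethanol replicate 1). In PBS-injected cord, with 2 libraries a group, the 0 genes became 176 by DESeq2, 18 by voom, 80 with no filter and 93 to 6075 with 1 library left out, which assumes that a lone library varies like the others. The difference between aGr1 and uninjected cord (153 genes) became 465 by DESeq2, 479 by voom, 55 to 416 with 1 library left out (without uninjected MC903 replicates 4 and 3), 0 with PBS in place of uninjected libraries and 15 with both. With PBS in place, Igfbp4, Ccnd1 and Gm38271 changed sign (-0.36, -0.041 and 0.060). The 7406 genes that differed between aGr1 and PBS numbered 1186 to 9740 with 1 library left out. The causes were not tested.

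The replicate numbers did not pair the samples: the mean correlation of same-numbered libraries was 0.03 with aGr1 (-0.14 to 0.25 over 6 pairs, 1 of 6 best with its own number), -0.08 uninjected and -0.39 with PBS. With the replicate block 1993 genes were called with aGr1, 1747 uninjected, 224 with PBS and 62 for the difference. The crossed replicate block for PBS, added after seeing the data, called 955. In the order of the sample records, aGr1 MC903 replicate 1 and ethanol replicates 1 to 3 stand apart from the other aGr1 cord samples. This split is uneven between the treatments. Whether it marks separate batches is not given, and its part in the results was not tested.

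Depth was similar across the aGr1 libraries, and genes of a few counts per library such as Ly6g and Stfa2l1 were limited by counting.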

Other observations

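Cold-inducible and heat shock genes moved apart in aGr1-injected cord. Rbm3 and Cirbp, RNA-binding proteins that rise when cells cool, rose with MC903: Rbm3 from 43.8, 46.5 and 50.1 cpm (lowest, median and highest) with ethanol to 75.1, 90.6 and 127.9 cpm, a 2.0-fold change (log2 fold change 1.0 ± 0.10, adjusted p = 2.33e-06), and Cirbp from 37.1, 39.0 and 42 to 47.3, 60.9 and 82.3 cpm, a 1.62-fold change. Neither overlapped between the groups. Of the 17 genes of heat shock and cold, 9 fell, against 6.79% of all genes, and the median log2 fold change of the 17 was -0.20. Hsph1 and Chordc1, a chaperone and a co-chaperone, stood at -0.42 and -0.39, and the near copies Hspa1a and Hspa1b at -0.70 and -0.83. Hspa5, the chaperone of the endoplasmic reticulum, was at 275, 290 and 311 cpm with ethanol and at 187, 217 and 242 cpm with MC903. It was 1 of 6 of 16 genes of the unfolded protein response that fell, with Sdf2l1 (-0.62), Creld2 (-0.53), Calr (-0.48), Pdia4 (-0.39) and Manf (-0.38), and none rose. These 6 were 37.5% of the group, against 6.79% of all genes that fell.

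Clock genes changed in 6 of 20 members (30%, against 11.3% of all genes). Cry1, Per1, Cry2 and Tef rose by log2 values of 0.60, 0.41, 0.28 and 0.22, and Dbp and Nr1d1, both outputs of the clock that peak by day, fell by 0.63 and 0.40. The time of day of tissue collection is not given in the labels. Of 21 endothelial and pericyte genes, Mfsd2a and Slco1a4, transporters of the blood-brain barrier, rose by 0.83 and 0.53, and Sox17, Cdh5 and Vcam1 fell by 0.67, 0.45 and 0.41. That was a share of 23.8%, against 11.3% of all genes called. The call of Vcam1 was lost in 9 of 25 alternative settings and that of Cdh5 in 2. Of 16 measured genes of the vitamin D receptor pathway, 12.5% passed, near the 11.3% of all genes. Cyp24a1, the vitamin D degrading enzyme that the receptor induces, rose by a log2 value of 1.20 ± 0.37 (adjusted p = 0.0419) at 0.587 cpm or less, a call lost in 14 of 23 alternative settings. Calb2 rose by 0.23, and the receptor gene Vdr was at -0.28 (adjusted p = 0.264).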
